A study of Mus musculus with 16 samples.

Results

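The genes described here are 9 that encode molecules by which the vessel wall captures leukocytes and presents chemokines: the selectins Selp and Sele, the immunoglobulin-superfamily molecules Icam1, Icam2, Vcam1 and Pecam1, the sialomucins Cd34 and Podxl, and the atypical chemokine receptor Ackr1. They were taken by gene symbol from a table of 37003 genes, and all 9 were present and passed the filter on low counts that 31085 genes passed. RNA was measured in brain endothelial cells (bECs) of adult mice of both sexes, sorted as DAPI-negative, CD45-negative and CD31-positive cells 72 h after a 30 min middle cerebral artery occlusion (MCAo) or a sham operation. Each genotype, CTRL and YT-iKO, had 4 libraries after sham surgery and 4 after MCAo. YT-iKO mice carried the tamoxifen-inducible Pdgfb-iCreER-eGFP transgene on 1 allele with floxed alleles of Yap and Taz (gene symbol Wwtr1), so that recombination is limited to cells with Pdgfb promoter activity, which in the brain are mainly endothelial. CTRL mice had both floxed genes and no Cre transgene, and both genotypes received tamoxifen. A library was a pool of several mice, and the spread between libraries is therefore a spread between pools.

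Leukocytes leave the blood in steps. Selectins on the endothelium catch flowing cells by their sugar ligands and let them roll, chemokines shown on the vessel surface activate leukocyte integrins, and these bind ICAM and VCAM molecules before the cells pass the wall, with PECAM-1 taking part in the passage. P-selectin is stored in the Weibel-Palade bodies of endothelial cells and in platelet granules, E-selectin is made after cytokine stimulation, and ACKR1 binds many inflammatory chemokines without G-protein signalling, on venular endothelium and on red cells. The brain endothelium at rest carries little of the selectins and much of PECAM-1, ICAM-2 and the sialomucins.

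The libraries held 11418262 to 23074547 counts. Yap1 was 80.5 to 133 CPM (counts scaled to the effective library size) in CTRL and 37.1 to 63.0 CPM in YT-iKO libraries, and Wwtr1 was 235 to 438 CPM and 45.0 to 136 CPM, so both targeted genes separated the genotypes in every library. The 12 pan-endothelial markers summed to 11608 to 25756 CPM, while the sums of the neutrophil, lymphocyte and monocyte, macrophage and microglia lists were at most 27.5, 23.4 and 49.0 CPM. No marker of these leukocyte lists was at 0 in all libraries of a group. An even background of reads, read from 1466 sensory receptor genes that bECs should not transcribe, lay between 0.0413 and 0.421 CPM per kb of exon. It was above 0.28 CPM per kb in 5 libraries: MCAo libraries 2 and 3 of each genotype and YT-iKO sham library 3.

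After sham surgery the members differed widely in level. Per kilobase of exon, the mean level in CTRL sham bECs was 347 CPM per kb for Podxl (± 15.3, SD, n = 4) and 190 ± 11.2 for Pecam1, the gene of the CD31 antigen on which the cells were sorted. Cd34 followed at 61.6 ± 4.84 and Icam2 at 53.0 ± 5.90 CPM per kb, and the ranges of these 2 genes overlapped. Icam1 (10.6 ± 1.66) and Vcam1 (9.44 ± 1.27 CPM per kb) were lower and did not differ beyond their spread. Ackr1 was at 1.76 ± 0.405, Sele at 0.905 ± 0.181 and Selp at 0.456 ± 0.150 CPM per kb. Podxl alone made up 51.5% ± 0.352 of the summed level per kb of the 9 genes in CTRL sham and 50.2% to 53.2% on average in all 4 groups. Ackr1, Sele and Selp had mean shares of 0.263%, 0.135% and 0.0685% in CTRL sham. The low end was close to the background: even reads would account for 29.7% to 67.7% of the 19 to 42 Selp counts per CTRL sham library and for 15.8% to 28.6% of those of Sele, so the fold changes of Selp and Sele given below are on counts that include this background.

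Because Selp, Sele and Ackr1 moved together, their promoter windows are shown first, with that of Icam1, whose change did not pass the test. RefSeq windows of 250 bases before to 50 bases after the gene start (GRCm38.p6) were at hand for 5 of the 9 members, these 4 and Cd34. Capitals mark matches on either strand to GGNNNTTCC, or to the same letters with 4 bases in the spacer, the outer letters of a kappaB site, to which NF-kappaB proteins bind. All sequences read 5′ to 3′ on the strand of the gene.
Selp, chr1:164115014-164115313, plus strand: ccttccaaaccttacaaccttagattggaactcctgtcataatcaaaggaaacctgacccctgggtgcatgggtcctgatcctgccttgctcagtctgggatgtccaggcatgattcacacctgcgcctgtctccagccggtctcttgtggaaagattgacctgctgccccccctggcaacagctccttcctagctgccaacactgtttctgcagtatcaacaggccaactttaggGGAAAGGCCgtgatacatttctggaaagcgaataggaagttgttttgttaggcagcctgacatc
Sele, chr1:164047984-164048283, plus strand: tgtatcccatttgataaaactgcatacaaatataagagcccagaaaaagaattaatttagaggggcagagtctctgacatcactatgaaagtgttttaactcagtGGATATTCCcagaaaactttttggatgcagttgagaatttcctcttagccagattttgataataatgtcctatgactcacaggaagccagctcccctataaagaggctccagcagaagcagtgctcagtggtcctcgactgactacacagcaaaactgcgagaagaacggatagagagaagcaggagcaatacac
Ackr1, chr1:173333454-173333753, minus strand: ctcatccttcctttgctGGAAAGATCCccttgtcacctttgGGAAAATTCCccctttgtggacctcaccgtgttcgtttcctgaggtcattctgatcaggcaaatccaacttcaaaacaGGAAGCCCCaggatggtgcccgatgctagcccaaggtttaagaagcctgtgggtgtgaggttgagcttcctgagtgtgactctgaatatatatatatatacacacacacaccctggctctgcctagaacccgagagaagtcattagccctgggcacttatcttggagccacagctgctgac
Icam1, chr9:21015690-21015989, plus strand: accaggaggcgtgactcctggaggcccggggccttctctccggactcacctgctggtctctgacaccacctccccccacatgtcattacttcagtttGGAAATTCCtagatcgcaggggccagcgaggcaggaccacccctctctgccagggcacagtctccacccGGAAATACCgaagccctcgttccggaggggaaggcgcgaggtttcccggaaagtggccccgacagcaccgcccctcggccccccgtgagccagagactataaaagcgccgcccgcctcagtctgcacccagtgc
Each of these 4 windows held at least 1 match, and that of Cd34 held none. Of 32851 windows of 300 bases, 18.5% held the form with 3 spacer bases and 18.2% the form with 4. The share with either form, which can be larger than both values, was not computed, so how unusual such windows are is not given. Sele had GGATATTCC from base -145 to -137, counted from the gene start, and Icam1 had GGAAATTCC from -153 to -145 and, matching on the opposite strand, GGAAATACC from -84 to -76. Ackr1 had GGAAAATTCC from -209 to -200 and, matching on the opposite strand, GGAAAGATCC from -233 to -224 and GGAAGCCCC from -131 to -123. Selp had the single match GGAAAGGCC from -14 to -6, also on the opposite strand. The AP-1 letters TGANTCA, present in 7.81% of all windows, were found in Selp (TGATTCA, -139 to -133) and Sele (TGACTCA, -73 to -67). The STAT letters TTCNNNGAA, present in 8.3% of windows, were found in Icam1 and, overlapping the kappaB match, in Sele. GGAATG, the core letters of a TEAD site, by which YAP and TAZ reach DNA, occurred in 14.7% of all windows and in none of the 5, which says only that these letters are not in these windows. A match is a string of letters and not a measured site.

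The 2 selectins and Ackr1 rose strongly after MCAo in both genotypes. In CTRL bECs, Selp was 2.43, 1.42, 1.48 and 2.73 CPM in sham libraries 1 to 4 and 84.6, 14.3, 9.16 and 29.8 CPM in MCAo libraries 1 to 4. The groups did not overlap, and within MCAo the highest library was 9.24 times the lowest. The fitted change was 17.0-fold (log2 fold change 4.09, SE 0.64, adjusted p = 0.00382, edgeR). Without CTRL MCAo library 1, the highest, the log2 fold change was 3.18 (adjusted p = 0.0102, edgeR). In YT-iKO bECs, Selp was 1.74, 1.46, 3.76 and 3.43 CPM after sham and 60.4, 16.1, 10.04 and 46.3 CPM after MCAo. These groups did not overlap either, and the log2 fold change was 3.69 (SE 0.62, adjusted p = 0.00683, edgeR).

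Sele was 2.30, 2.22, 2.64 and 3.38 CPM in CTRL sham libraries 1 to 4 and 36.4, 9.92, 9.29 and 16.3 CPM after MCAo. In YT-iKO it was 4.58, 5.62, 8.49 and 3.16 CPM after sham and 79.3, 28.9, 23.1 and 53.5 CPM after MCAo. Every MCAo library was above every sham library of its genotype, and 3 of 4 YT-iKO sham libraries were above all 4 CTRL sham libraries. The log2 fold change was 2.77 (SE 0.44, adjusted p = 0.00503) in CTRL and 3.08 (SE 0.43, adjusted p = 0.00157) in YT-iKO, in edgeR's quasi-likelihood test.

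Ackr1 was 2.94, 1.94, 2.02 and 2.99 CPM in CTRL sham libraries 1 to 4 and 66.4, 24.2, 11.2 and 36.01 CPM after MCAo. In YT-iKO it was 4.19, 2.64, 2.79 and 1.71 CPM after sham and 71.1, 13.1, 14.8 and 57.4 CPM after MCAo. Again the groups did not overlap, and libraries 1 and 4 of each genotype were the highest after MCAo. The log2 fold change was 3.80 (SE 0.55, adjusted p = 0.00166) in CTRL and 3.77 (SE 0.54, adjusted p = 0.00161) in YT-iKO, in edgeR's test. Per kilobase, Ackr1 thereby came to 24.5 ± 16.8 CPM per kb in CTRL MCAo and 27.8 ± 21.1 in YT-iKO MCAo (SD, n = 4). Its mean in CTRL MCAo was above those of Icam1, Vcam1, Selp (7.81 ± 7.83 CPM per kb) and Sele (6.17 ± 4.35), and its range, 7.97 to 47.3 CPM per kb, overlapped those of all 4.

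**Figure D1:**
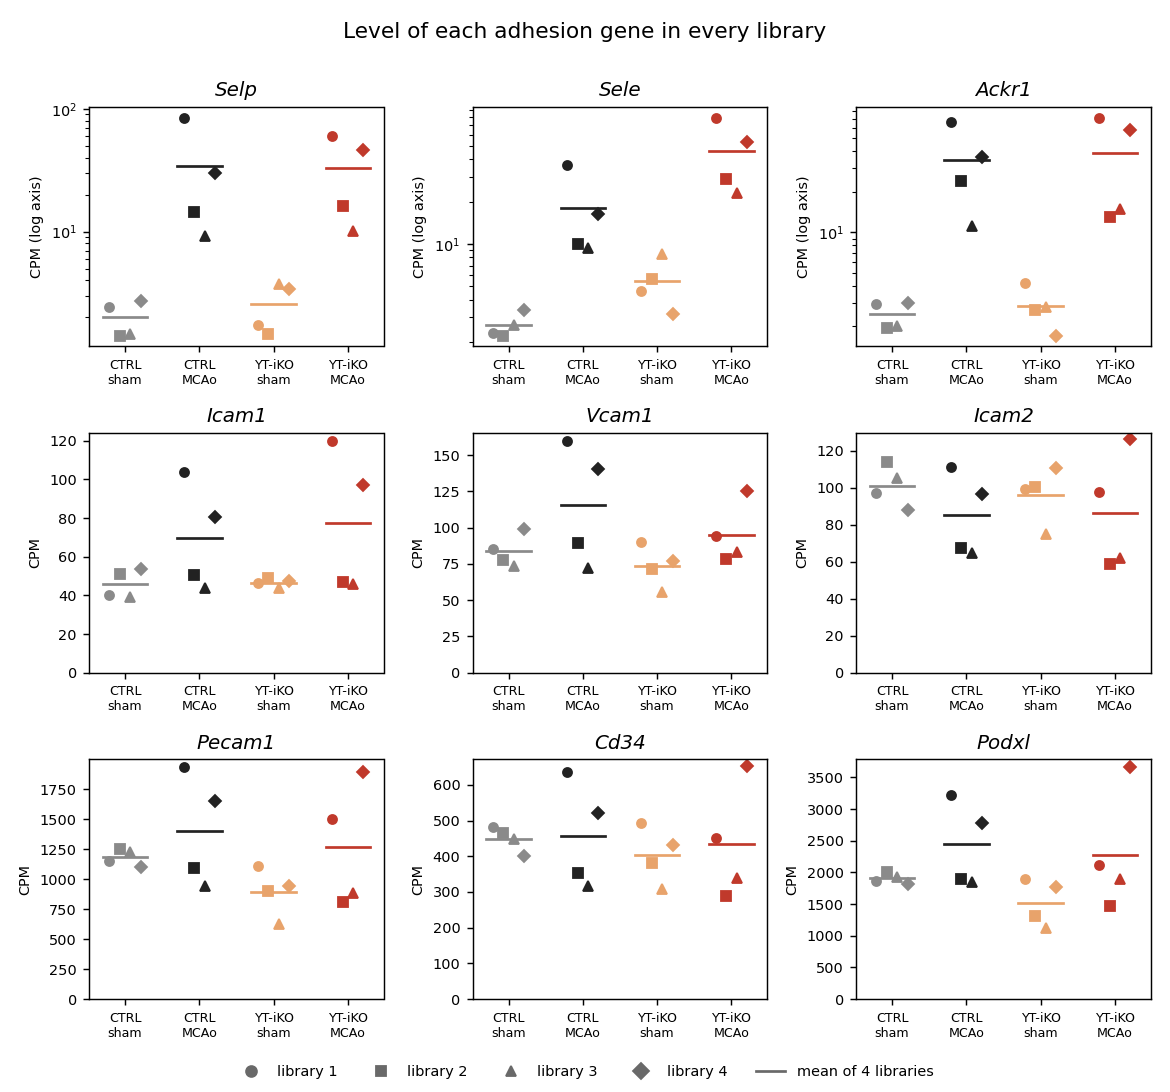
CPM of each of the 9 genes (vertical axis; logarithmic for Selp, Sele and Ackr1) in the 4 groups (horizontal axis), with 1 symbol per library number and a line at the mean of 4 libraries. For Selp, Sele and Ackr1 all MCAo libraries lie above all sham libraries of their genotype, whereas the MCAo and sham libraries of the other 6 genes overlap.

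Thus 3 of 9 members rose and none fell in CTRL, where 0.216% of the 31085 genes tested passed the same threshold (adjusted p under 0.1) 0.183% as higher and 0.0322% as lower. In YT-iKO the 3 of 9 called were the same genes, against 0.318% of all genes, 0.277% as higher and 0.0418% as lower. No overlap between MCAo and sham libraries in the higher direction, seen for 3 of 9 members in each genotype, was found for 2.24% of all genes in CTRL and 0.785% in YT-iKO. The median log2 fold change of the 9 members was 0.46 in CTRL and 0.59 in YT-iKO, beside 0.07 and -0.02 over all genes tested. As the members were chosen with earlier results of these data known, these shares and medians describe the members and do not test them as a set. For each of the 3 genes the exact permutation test of log2(CPM + 1) gave p = 0.0286 in both genotypes, the smallest value that 4 against 4 libraries allow. In these bulk samples a larger share of cells of one vessel type and more RNA per cell cannot be told apart.

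The depth of the MCAo pools moved with these values. MCAo libraries 1 and 4 of each genotype held 18662626 to 23074547 counts at background densities of 0.0413 to 0.192 CPM per kb, and gave the higher Selp, Sele and Ackr1 levels. MCAo libraries 2 and 3 held 11418262 to 12791352 counts at 0.289 to 0.412 CPM per kb, and gave the lower levels. Across all 8 MCAo libraries Ackr1 ran from 11.2 to 24.2 CPM in the latter 4 and from 36.01 to 71.1 CPM in the former 4. The part of background and depth in this spread was not tested. With the 5 libraries of high background left out, an alternative chosen after seeing the data that leaves 2 MCAo libraries per genotype, the log2 fold changes in CTRL were 4.73 for Selp, 3.24 for Sele and 4.29 for Ackr1, and in YT-iKO 4.53, 3.81 and 4.38. Limma-voom with sample weights gave smaller values, 3.01, 2.10 and 3.21 in CTRL and 2.51, 2.52 and 2.54 in YT-iKO.

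**Figure D2:**
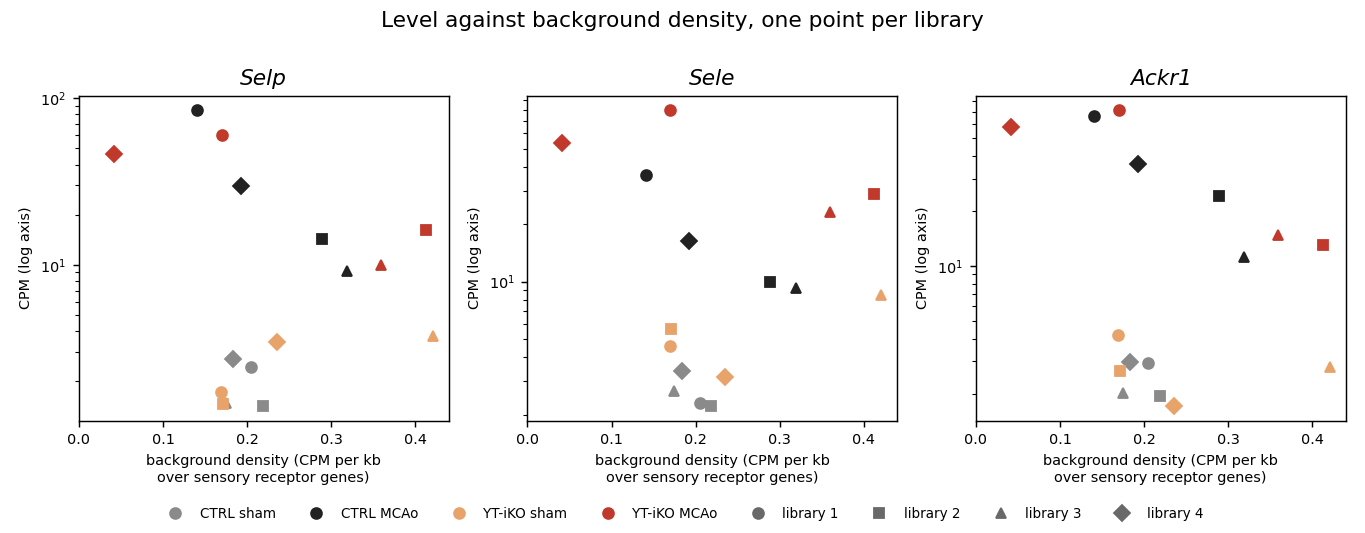
CPM of Selp, Sele and Ackr1 (vertical axis, logarithmic) against the background density of the library in CPM per kb over sensory receptor genes (horizontal axis), 1 point per library, coloured by group with 1 symbol per library number. The 8 MCAo libraries lie above the 8 sham libraries for each gene, and within each genotype the 2 MCAo libraries of higher background have the lower levels.

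Icam1 and Vcam1, the ligands of leukocyte LFA-1 and VLA-4, changed far less. Icam1 was 40.2, 50.9, 39.4 and 53.5 CPM in CTRL sham and 104, 50.5, 43.9 and 80.6 CPM in CTRL MCAo libraries 1 to 4. In YT-iKO it was 46.6, 49.0, 43.7 and 47.3 CPM after sham and 120.0, 47.1, 45.7 and 97.2 CPM after MCAo. MCAo libraries 1 and 4 were above all sham libraries of their genotype, and libraries 2 and 3 lay among them. The log2 fold change was 0.60 (SE 0.29, adjusted p = 1.0, edgeR) in CTRL and 0.73 (SE 0.29, adjusted p = 1.0, edgeR) in YT-iKO. Averaged over genotypes it was 0.67 (95% interval 0.23 to 1.10, adjusted p = 0.220, edgeR), where 1.23% of all genes passed, 0.933% as higher, and 3 of 9 members, Selp, Sele and Ackr1, did so as higher. Icam1 passed in that comparison in 7 of 26 refits. These were DESeq2 (0.65, adjusted p = 0.0330) and, in edgeR, the filter at CPM above 1 in at least 4 libraries (0.65, 0.0916), the background density as a covariate (0.57, 0.00935), factors from abundant genes and libraries of low background (both described below), and the fits without YT-iKO MCAo library 2 (0.74, 0.0544) or library 3 (0.76, 0.0878). Limma-voom gave 0.14 (adjusted p = 0.355).

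Vcam1 was 85.4, 77.4, 73.5 and 98.9 CPM in CTRL sham and 160.0, 89.2, 72.5 and 140.4 CPM in CTRL MCAo libraries 1 to 4. In YT-iKO it was 90.2, 71.7, 55.8 and 76.9 CPM after sham and 94.0, 78.6, 83.1 and 125 CPM after MCAo. In CPM the groups overlapped in both genotypes. Per 1000 counts of the pan-endothelial markers, a scaling chosen after seeing the data, Vcam1 did not overlap in either genotype. On this scale it was 3.26 to 4.72 in CTRL sham and 4.81 to 6.21 in CTRL MCAo, and 3.85 to 4.44 and 4.57 to 6.77 in YT-iKO. Icam1 on this scale did not overlap in CTRL (1.75 to 2.55 after sham, 2.91 to 4.03 after MCAo) and overlapped in YT-iKO. Pecam1 and Podxl also did not overlap in either genotype, while Icam2 and Cd34 overlapped in both. Pecam1 was 51.5 to 55.5 in CTRL sham and 62.3 to 75.01 in CTRL MCAo. In YT-iKO it was 48.3 to 54.3 and 57.6 to 81.5. Podxl was 83.8 to 89.1 and 116 to 125 in CTRL, and 69.99 to 102.03 and 102.83 to 157 in YT-iKO. How many of all genes tested separated MCAo from sham on this scale was not computed. The averaged log2 fold change of Vcam1 was 0.42 (95% interval 0.06 to 0.78, adjusted p = 0.618, edgeR).

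Icam2, a constitutive ligand of LFA-1, was 87.7 to 114 CPM after sham and 64.8 to 111 CPM after MCAo in CTRL libraries, and 74.8 to 110 CPM and 58.7 to 126 CPM in those of YT-iKO. Its log2 fold change after MCAo was -0.25 (SE 0.25) in CTRL and -0.16 (SE 0.25) in YT-iKO. Pecam1 was 1102 to 1253 CPM in CTRL sham and 940 to 1932 CPM in CTRL MCAo libraries, and 622 to 1108 CPM and 811 to 1894 CPM in the corresponding YT-iKO libraries. Its log2 fold change was 0.25 (SE 0.30) in CTRL and 0.51 (SE 0.30) in YT-iKO. Of the sialomucins, Cd34 had log2 fold changes of 0.02 (SE 0.27) and 0.10 (SE 0.27), and Podxl, podocalyxin, of 0.36 (SE 0.30) and 0.59 (SE 0.30). None of these 4 genes passed the test, and their MCAo libraries again spread more widely than their sham libraries: their coefficients of variation were 4.42% to 11.1% in CTRL sham and 26.7% to 33.3% in CTRL MCAo, and 15.7% to 24.4% and 37.1% to 41.9% in the corresponding YT-iKO groups.

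The calls for these 6 less changed genes depended on the fit. With TMM factors taken from genes averaging 10 CPM or more, the averaged comparison called 8 of 9 members, against 5.12% of all genes: Icam1 (log2 fold change 0.62, adjusted p = 0.00692), Podxl (0.46, 0.00698), Vcam1 (0.42, 0.00661) and Pecam1 (0.36, 0.0106) were higher and Icam2 was lower (-0.21, adjusted p = 0.0840), all in edgeR, beside the 3 strongly induced genes. With RLE factors 3 of 9 members were called, as in the fit with TMM. Without the 5 libraries of high background 7 of 9 members were called, against 10.9% of all genes, with Icam1 at 1.02 (adjusted p = 1.32e-05, edgeR). Limma-voom with sample weights called 5 of 9 members, a share near the 54.7% of all genes it called, with Icam2 (-0.60, adjusted p = 0.000394) and Cd34 (-0.31, adjusted p = 0.0234) lower, and gave Pecam1 a value of -0.074.

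**Figure D3:**
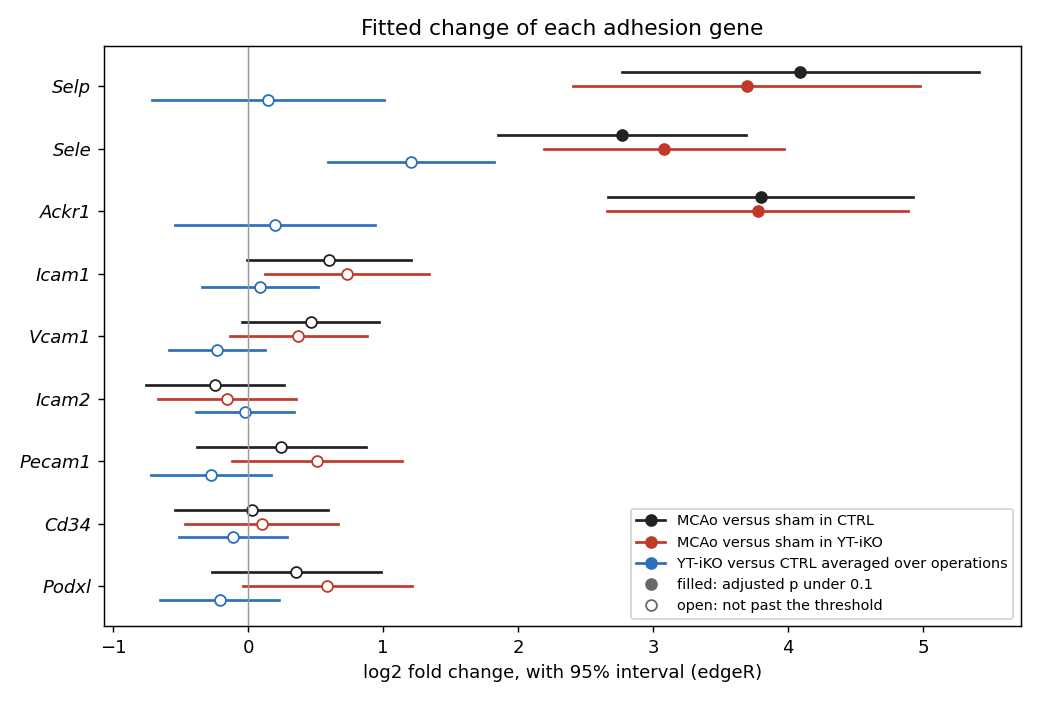
Log2 fold change of each gene (horizontal axis, with its 95% interval) for MCAo against sham in CTRL and in YT-iKO and for YT-iKO against CTRL averaged over operations, from edgeR; filled points passed an adjusted p of 0.1. Only Selp, Sele and Ackr1 have filled points, in both MCAo comparisons, and the interval of Sele in the genotype comparison runs from 0.59 to 1.82.

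Ratios of counts of 2 members within 1 library do not depend on library scaling. These ratios were chosen after the values had been seen, and 28 exact two-sided permutation tests were run on their log2 values, of which 8 gave the smallest possible p of 0.0286 (Benjamini-Hochberg adjusted 0.1). Icam1 to Icam2 rose from 0.415, 0.447, 0.375 and 0.610 in CTRL sham to 0.935, 0.749, 0.677 and 0.832 in CTRL MCAo libraries 1 to 4. In YT-iKO the ratio was 0.428 to 0.584 after sham and 0.738 to 1.23 after MCAo, and the groups did not overlap in either genotype. Podxl to Cd34 was 3.88 to 4.53 in CTRL sham and 5.08 to 5.85 in CTRL MCAo, and 3.41 to 4.09 and 4.69 to 5.60 in YT-iKO, again with no overlap. Pecam1 to Cd34 was 2.38 to 2.75 in CTRL sham and 2.97 to 3.16 in CTRL MCAo, and 2.02 to 2.35 and 2.59 to 3.32 in YT-iKO. Pecam1 to Cd34 was also lower in all YT-iKO sham than in all CTRL sham libraries. Relative to Icam2 and Cd34, therefore, Icam1 and Podxl were higher in each MCAo library than in each sham library of the same genotype, at low and at high background. Ackr1 to Selp, the ratio of 2 strongly induced genes, was 1.26 ± 0.131 after sham and 1.23 ± 0.369 after MCAo in CTRL, and 1.37 ± 0.902 and 1.18 ± 0.275 in YT-iKO (SD, n = 4), and its groups overlapped. These counts include the background. In CTRL sham it would account for 29.7% to 67.7% of the Selp counts and 8.64% to 15.9% of the Ackr1 counts. The sham ratio therefore depends on the background, and the similar values do not show an equal rise of both genes.

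**Figure D4:**
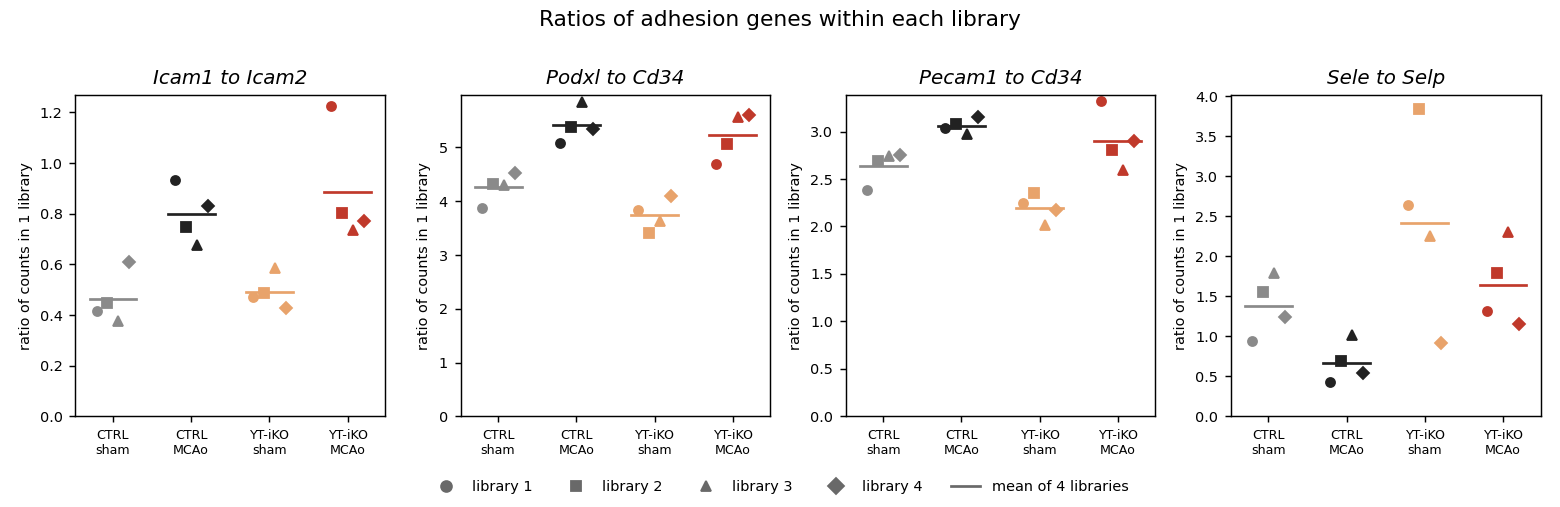
Ratio of the counts of 2 genes in the same library (vertical axis, from 0) in the 4 groups (horizontal axis), with 1 symbol per library number and a line at the mean of 4 libraries. Icam1 to Icam2, Podxl to Cd34 and Pecam1 to Cd34 do not overlap between MCAo and sham of either genotype, and Sele to Selp does not overlap between the genotypes after MCAo.

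No member passed the test between genotypes. After sham surgery 0 of 9 members and 0.0965% of all genes were called, after MCAo 0 of 9 and 0.0708%, and averaged over operations 0 of 9 and 0.28%. At an unadjusted p under 0.05 in edgeR, only Sele among the members passed, in all 3 of these comparisons, beside 2.16%, 1.49% and 3.24% of all genes. Selp differed by 0.35 (SE 0.64) after sham and -0.05 (SE 0.54) after MCAo, and Ackr1 by 0.21 (SE 0.54) and 0.18 (SE 0.47), on the log2 scale. The averaged differences of the other members were 0.09 for Icam1, -0.03 for Icam2, -0.23 for Vcam1, -0.27 for Pecam1, -0.11 for Cd34 and -0.21 for Podxl, with standard errors of 0.17 to 0.21.

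Sele had the highest value in YT-iKO relative to CTRL among the members. Its mean was 2.64 ± 0.528 CPM in CTRL sham and 5.46 ± 2.25 CPM in YT-iKO sham, and 18.0 ± 12.7 CPM in CTRL MCAo and 46.2 ± 25.7 CPM in YT-iKO MCAo (SD, n = 4). The log2 difference was 1.05 (SE 0.44, adjusted p = 0.990) after sham and 1.36 (SE 0.40, adjusted p = 0.902) after MCAo in edgeR, and the groups overlapped in CPM in both. Averaged over operations it was 1.21 (95% interval 0.59 to 1.82, adjusted p = 0.140, edgeR), and this difference was called by DESeq2 (adjusted p = 0.00264), by limma-voom (0.00276), with the background density as a covariate (0.00214), with factors from abundant genes (0.0141), with the filter at CPM above 1 (0.0798) and with libraries of low background (0.0217), but not with RLE factors (0.102) or no filter (0.101). Fitting the library number as a block also called the averaged difference of Sele, as given in the last section. Leaving out CTRL MCAo library 1, the highest of its group, gave an adjusted p of 0.0100, and leaving out YT-iKO MCAo library 2, 3 or 4 gave 0.0700, 0.0763 and 0.0369, so that Sele was called in 4 of the 16 fits that each left out 1 library, with adjusted p from 0.0100 to 0.429. After MCAo alone, Sele was called without CTRL MCAo library 1 (1.86, adjusted p = 0.0717, edgeR), by DESeq2 (0.0979), by limma-voom (0.00359) and with the background density as a covariate (0.0356). Within libraries, Sele to Selp was 0.430, 0.692, 1.01 and 0.546 in CTRL MCAo and 1.31, 1.79, 2.30 and 1.16 in YT-iKO MCAo libraries 1 to 4, which did not overlap (exact permutation p = 0.0286). After sham the ratio was 0.947 to 1.79 in CTRL and 0.923 to 3.85 in YT-iKO, which overlapped. Per 1000 counts of the pan-endothelial markers, a scaling chosen after seeing the data, Sele did not overlap between genotypes. On this scale it was 0.0984 to 0.161 in CTRL sham and 0.182 to 0.666 in YT-iKO sham. After MCAo it was 0.606 to 1.41 in CTRL and 1.51 to 3.86 in YT-iKO. The pan-endothelial sum itself averaged 22109 CPM in CTRL and 17632 CPM in YT-iKO after sham, and 20215 and 17673 CPM after MCAo. Dividing by it thus raises YT-iKO values relative to CTRL. The share of all genes without overlap between genotypes on this scale was not computed. Marker lists of cell types also differed in their medians between genotypes, averaged over operations. Of 6 capillary markers, Slc16a1 (-1.44) and Tfrc (-0.98) were lower in YT-iKO, with a median of -0.65 and 1 of 6 values above 0. Of 6 venous markers Slc38a5 was lower (-1.38), while 4 of 6 values were above 0 and the median was 0.22. No pan-endothelial, neutrophil, or monocyte, macrophage and microglia marker was called, with 1 of 12, 10 of 10 and 13 of 13 values above 0 and medians of -0.17, 0.25 and 0.22, beside 0.09 over all genes tested. Also without a call were neuron (6 of 7 above 0, median 0.40), oligodendrocyte (6 of 7, 0.39) and erythroid (7 of 7, 0.38) markers. The same held for lymphocyte (7 of 9, 0.27), platelet (10 of 11, 0.26) and arterial markers (5 of 8, 0.14). It also held for fibroblast (5 of 8, 0.10), pericyte and smooth muscle (4 of 12, -0.09) and astrocyte markers (1 of 7, -0.14). The part of these cell types in the values of Sele was not tested.

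Whether the response to MCAo differed between genotypes was tested as an interaction. None of the members, and 0 of all genes tested, passed in edgeR, while 116 genes (0.373%) had an unadjusted p under 0.05, no member among them; DESeq2 called 0 genes as well. The difference of the log2 fold changes was -0.40 for Selp (95% interval -2.12 to 1.33), 0.31 for Sele (-0.91 to 1.54) and -0.02 for Ackr1 (-1.47 to 1.43). These intervals include differences of more than 1 log2 unit in at least 1 direction for each gene.

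The other genes of leukocyte capture were taken as lists, whose counts stand beside the 0.183% of all genes called higher after MCAo in CTRL and the 0.277% in YT-iKO. Of 13 genes of selectin ligand synthesis, Chst1, a carbohydrate sulfotransferase, rose in both genotypes (log2 fold change 2.40 and 2.01, from 1.54 CPM in CTRL sham to 8.20 CPM in CTRL MCAo) and B3gnt3, which extends the sugar chains that carry L-selectin ligands, was called in YT-iKO (1.64) with 1.39 in CTRL (adjusted p = 0.131, edgeR). Of 16 junctional and surface molecules of diapedesis tested, 0 rose in CTRL and Mcam, the gene of CD146, rose in YT-iKO (1.92), with 1.64 in CTRL (adjusted p = 0.156, edgeR). In the average over genotypes 3 of these 16 rose, Mcam (1.78), Nectin2 (0.88) and Aoc3 (0.87), beside 0.933% of all genes. Of 11 receptors that induce endothelial adhesion molecules, Tlr4 (1.26) rose in CTRL, with 1.07 in YT-iKO. Il4ra (1.98) and Tnfrsf1a (1.42) rose in YT-iKO, with 1.17 and 1.08 in CTRL. The interaction test, of whether the MCAo response differed between genotypes, called none of Mcam, Tlr4, Il4ra and Tnfrsf1a. In the same average 5 of these 11 receptors rose, 0 fell, and their median log2 fold change was 0.72, beside 0.03 over all genes tested. Of 13 Weibel-Palade body genes, Vwf, whose product forms the bodies in which P-selectin is stored, rose in both genotypes (1.98 and 2.35), from 1207 ± 182 CPM in CTRL sham to 4776 ± 1969 CPM in CTRL MCAo (SD, n = 4).

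None of the 9 docking partners of Icam1, 6 other sialomucins and addressins, 4 other atypical chemokine receptors or 8 leukocyte counter-receptors passed in either genotype, and of 6 shedding proteases Mmp14 rose (0.99) in the average over genotypes alone. Between genotypes, averaged over operations, Ackr3, another atypical chemokine receptor, was lower in YT-iKO (-0.90, adjusted p = 0.0737, edgeR), as were the sulfotransferase Chst2 (-0.84) and, among the Weibel-Palade body genes, Angpt2 (-1.03) and Edn1 (-1.40). In this comparison 0.28% of all genes tested were called, and 8.05% of these calls were higher. Ackr3 was 59.2 CPM in CTRL sham and 29.8 CPM in YT-iKO sham on average, while Ackr1 was 2.47 and 2.83 CPM.

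Most markers of vessel segments were not called after MCAo in either genotype. Of 6 venous markers, Lrg1 (4.59 in CTRL and 4.86 in YT-iKO on the log2 scale) and Vwf rose in each genotype. The other 4 were not called in either, with log2 fold changes in CTRL and YT-iKO of 0.37 and 0.78 for Nr2f2, 0.20 and 0.54 for Ephb4, 0.54 and 0.97 for Slc38a5, and 0.67 and 1.05 for Il1r1. All 6 values were above 0 in each genotype (median 0.60 in CTRL and 1.01 in YT-iKO), and 3 of 6 rose in the average over genotypes, Il1r1 (0.86, adjusted p = 0.0979, edgeR) with Lrg1 and Vwf. The list summed to 1559 to 1941 CPM in CTRL sham and 3395 to 8173 CPM in CTRL MCAo, and most of this sum was Vwf, also counted among the Weibel-Palade body genes above (1207 of 1754 CPM and 4776 of 5587 CPM on average). Of 6 capillary markers 0 were called in either genotype, the median was -0.36 in each, and Car4 was lower in the average (-0.77). Of 8 arterial markers Mgp rose (1.83 and 2.11) and 7 were not called in either genotype, with 2 of 8 values above 0 in CTRL (median -0.37) and 5 of 8 in YT-iKO (median 0.27). The platelet list of 11 genes, which bears on Selp, summed to 15.8 to 18.9 CPM after sham and 20.8 to 29.6 CPM after MCAo in CTRL, and to 17.8 to 35.2 and 22.2 to 33.0 CPM in YT-iKO, with Itga2b alone called, in the average (0.71). The erythroid list, which bears on Ackr1, summed to 10.8 to 33.3 CPM in CTRL sham and 14.7 to 25.2 CPM in CTRL MCAo, and 0 of its 7 tested genes were called. Of 8 fibroblast markers Dcn (2.13) and Col1a2 (0.77) rose in the average. Medians in CTRL and YT-iKO were 0.67 and 0.37 for fibroblast and 0.60 and 0.22 for platelet markers. They were -0.38 and -0.44 for erythroid and 0.39 and 0.29 for pericyte and smooth muscle markers. Neutrophil markers had 0.27 and -0.35, and lymphocyte markers 0.17 and 0.10. Monocyte, macrophage and microglia markers had 0.11 and -0.04, neuron 0.23 and -0.20, oligodendrocyte 0.29 and 0.29, and astrocyte markers -0.07 and 0.10. All genes tested had 0.07 and -0.02. The part of these cell types in the changes of Selp, Sele and Ackr1 was not tested.

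In the genome, 4 of the 9 members lie on chromosome 1 (GRCm38): Sele (164048234 to 164057677), Selp (164115264 to 164150026) and Cd34 (194938819 to 194961279) on the plus strand, and Ackr1 (173331886 to 173333750) on the minus strand. Sele and Selp are 57.6 kb apart and were called together after MCAo. F5, the gene of coagulation factor V, begins 1.81 kb from Selp and was lower in YT-iKO than in CTRL after sham (-2.19, SE 0.20, adjusted p = 8.9e-06, edgeR) and after MCAo (-1.51, SE 0.20, adjusted p = 0.00137, edgeR), where Selp was not called. Ackr1 shares 361 of its 1405 exon bases with Cadm3 on the same strand. Cadm3 rose after MCAo as well, from 4.46 ± 0.371 to 19.9 ± 7.80 CPM in CTRL (log2 fold change 2.15, adjusted p = 0.00109, edgeR), and how reads in the shared bases were assigned is not given in the sources used here. Selp shares 624 of its 4413 exon bases with antisense genes, 438 with Gm16548 and 186 with Gm16587. Gm16548, at 0.106 CPM in CTRL sham and 0.185 CPM in CTRL MCAo, did not pass the filter on low counts. Gm16587 was 0.252 CPM in CTRL sham and 1.09 CPM in CTRL MCAo, far below Selp, and it was called in the average over genotypes (2.65, adjusted p = 0.0466, edgeR). Icam1 shares 511 bases with Gm47079, Cd34 148 with Gm16897 and Vcam1 61 with Gm43109, all antisense and none called after MCAo. Icam2 and Pecam1 lie on chromosome 11, Vcam1 on chromosome 3, Podxl on chromosome 6 and Icam1 on chromosome 9.

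Genes whose log2(CPM + 1) was most like that of a member over the 16 libraries were named among 9123 genes averaging 10 CPM or more. For Selp they included Synpo (Pearson r = 0.979) and Cd14 (0.967), and for Ackr1 they were Ch25h (0.988), Lrg1 (0.988) and Ace (0.986). For Sele they included Il17ra (0.946) and Adamts4 (0.928). For Icam1 they were Itga5 (0.948), Ppp1r9b (0.946) and Lhx6 (0.945), and for Vcam1 Btd (0.954), Scd2 (0.953) and Ypel2 (0.945). These correlations describe 16 libraries that share groups, depth and background, and all genes compared share the library scaling.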

How the data were processed

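RNA of sorted bECs was sequenced in 16 libraries (SMART-Seq Ultra Low Input, paired-end), 1 sample per library. The authors aligned reads with STAR 2.7.8a to GRCm38 with GENCODE M12 genes, and the deposited values are raw counts, which the submitters' notes link with DESeq2; how reads were assigned to overlapping genes is not given in the sources used here. From these counts a single model of the 4 groups was fitted with edgeR 4.0.16 (R 4.3.3) using TMM factors, filterByExpr (minimum count 10, minimum total 15) and the quasi-likelihood F test, with Benjamini-Hochberg adjustment over all 31085 genes tested and a threshold of adjusted p under 0.1. CPM use the same factors; per-kb values divide by GENCODE M21 exon bases. Total counts per library and a background density from 1466 sensory receptor genes describe depth; of the counts no interval is given, since reads without molecular identifiers are not independent molecules. The fit was tested on simulated data. Members were named by rule: all 9, the called genes of each list with the largest changes (up to 4 per list), called or exon-sharing genes within 100 kb, and the 3 genes most like each of 5 members, of which 1 gene is not reported here. Members and lists were chosen with earlier results of these data known. All 16 count columns were used, and 0 were left out. Alternatives were DESeq2 1.42.0, limma-voom (limma 3.58.1), other factors, filters and thresholds, a replicate block, a background covariate and leaving out each library. Scaling to pan-endothelial markers, ratios of members and fits without the libraries of high background were chosen after seeing the data.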

Additional observations from a re-analysis of the deposited data

Results flagged for a closer look

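In 64 sets of 4 libraries (36 of CPM and 28 of ratios), 2 had a library set apart from the other 3 by Dixon's criterion (gap over range 0.867 and 0.838, above the critical value), where chance alone gives about 1 in 20. The ratio of Icam1 to Icam2 was 1.23 in YT-iKO MCAo library 1, beside 0.738, 0.770 and 0.803 in the others. The ratio of Pecam1 to Cd34 was 2.38 in CTRL sham library 1, beside 2.69, 2.74 and 2.75.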

How the results depend on the processing

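The rise of Selp, Sele and Ackr1 after MCAo in CTRL, in YT-iKO and in their average kept its direction and its call in all 240 refits, with adjusted p up to 0.0751. Between genotypes 1 of 9 members was called, Sele, after MCAo with DESeq2, limma-voom and the background covariate, and averaged over operations with these, with factors from abundant genes, the filter at CPM above 1, the replicate block and the libraries of low background; leaving out each library gave 0 to 1 called in both. All genes called made up 0.534% to 0.827% in these fits after MCAo and 0.479% to 2.4% averaged. After MCAo 5 members were called in YT-iKO with factors from abundant genes (1.74% of all genes) and 6 in each genotype with libraries of low background (3.05% in CTRL, 6.23% in YT-iKO). Averaged over genotypes the counts were 8 with factors from abundant genes (5.12% of all genes), 6 with the background covariate (5.95%), 7 with libraries of low background (10.9%), 4 with DESeq2 (5.08%), 4 with the CPM filter (2.51%) and 5 with limma-voom, whose 54.7% of all genes is near that share. Same-number libraries deviated together in part: 17 of 24 same-number pairs had a correlation of deviations above 0.1, with a median of 0.259 beside -0.128 for different numbers, and 3 of 16 libraries correlated best with their own number in each other group. As this did not hold for every pair and the labels name no shared litter or batch, the numbers were not taken as pairs. The replicate block gave Sele 1.26 between genotypes averaged (adjusted p = 0.0293, edgeR) and changed no other call of a member; it moved the genes called from 67 to 119 for MCAo in CTRL, from 22 to 34 between genotypes after MCAo and from 87 to 149 between genotypes averaged.

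Sign changes concerned members that had not passed the test. With limma-voom Pecam1 was -0.074 in CTRL, -0.075 in YT-iKO and -0.074 on average after MCAo, Cd34 -0.29, -0.34 and -0.31, Ackr1 -0.48 after MCAo and -0.15 averaged between genotypes, and Selp -0.041 and Icam1 -0.031 averaged between genotypes. Cd34 after MCAo was -0.047 with the block in CTRL, -0.0031 with only the groups compared and -0.093 with the background covariate in YT-iKO, and -0.018 with that covariate on average; on single values in CTRL it was 0.081 with factors from abundant genes and 0.14 per pan-endothelial count. Selp between genotypes after MCAo was 0.0017 with factors from abundant genes, 0.017 with only the groups compared and 0.047 with the block, and Ackr1 -0.088 with the background covariate. Icam2 was 0.041 with factors from abundant genes and 0.059 with libraries of low background between genotypes, and 0.0091 with the latter in YT-iKO after MCAo; the interaction of Ackr1 there was 0.089. Leaving out 1 library gave Cd34 -0.13 to 0.13 in CTRL, -0.17 to 0.22 in YT-iKO and -0.072 to 0.12 on average after MCAo, and on single values -0.21 to 0.13 in CTRL and -0.17 to 0.22 in YT-iKO.

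Between genotypes, leaving out 1 library gave Ackr1 -0.037 to 0.37 after sham, -0.38 to 0.61 after MCAo and -0.084 to 0.41 averaged, Selp -0.59 to 0.80 after MCAo and -0.12 to 0.57 averaged, Icam1 -0.10 to 0.18 and Icam2 -0.14 to 0.037. The interaction ran from -0.94 to 0.44 for Selp, -0.16 to 0.81 for Sele and -0.59 to 0.40 for Ackr1. Counts over all genes moved most. For MCAo in CTRL, 67 became 222 with DESeq2, 569 with factors from abundant genes, 121 with the CPM filter, 623 with only the groups compared, 7538 with limma-voom, 632 with the covariate and 894 with libraries of low background. In YT-iKO, 99 became 267, 542, 17 (only the groups compared), 5626, 474 and 1826, without a move past 1.5 times for the CPM filter, and on average 383 became 814, 1591, 641 (CPM filter), 17018, 1849 and 3192. Between genotypes in the order DESeq2, abundant genes, limma-voom, covariate and low background, 30 became 81, 122, 143, 139 and 121 after sham (126 with only the groups compared), 22 became 92, 181, 257, 233 and 116 after MCAo, and 87 became 244, 555, 746, 737 and 395 averaged (160 with the CPM filter). The interaction went from 0 to 1 gene with the covariate and with low background, no member. With factors from abundant genes the share of calls that were higher went from 86.9% to 72.3% in YT-iKO, from 75.7% to 65.4% on average, from 4.55% to 21.5% between genotypes after MCAo and from 8.05% to 32.8% averaged. For MCAo in CTRL this share was 85.1% (main fit), 69.6% (covariate), 46.5% (limma-voom) and 91.5% (low background). In the same order it was 86.9%, 58.6%, 50.9% and 80.7% in YT-iKO and 75.7%, 50.7%, 55.5% and 74.9% on average. Between genotypes it was 4.55%, 11.6%, 22.2% and 25.9% after MCAo and 8.05%, 21.8%, 29.8% and 30.9% averaged. The causes were not tested. Leaving out 1 library gave 26 to 162 in CTRL, 37 to 203 in YT-iKO and 246 to 578 on average after MCAo, and 12 to 43, 11 to 47 and 46 to 171 between genotypes after sham, after MCAo and averaged. Of the exact permutation tests of ratios refitted without 1 library, 58 kept their side of an unadjusted p of 0.05, 13 lost it at p = 0.0571 and 1 gained it (Sele to Selp after sham, without YT-iKO sham library 4). Of those lost, 4 of 8 each were of Icam1 to Icam2 in CTRL, Sele to Selp between genotypes after MCAo and Pecam1 to Cd34 between genotypes after sham. Depth limits Selp most, with 19 to 58 counts per sham library.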
